A study of Mus musculus with 9 samples.

Results

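Odorant receptors are G protein-coupled receptors through which olfactory sensory neurons (OSNs) of the nasal epithelium detect odors. They form the largest gene family of the mouse, and their genes lie in runs on many chromosomes. A mature OSN is known for using a single receptor gene, and usually a single allele of it, while the others stay silent. Class I receptors, the older group, lie in 1 run on chromosome 7 and are used mainly in the dorsal part of the epithelium, and class II receptors make up the rest. Receptor signaling runs through the G protein subunit Gnal, adenylyl cyclase Adcy3 and the cyclic nucleotide-gated channel (Cnga2, Cnga4 and Cngb1). Outside the nose, a few of these receptors are known from other tissues, Olfr78 being the best studied.

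Here the receptor genes were the 260 symbols, of 21536 genes in the count table, that begin with Olfr and a digit. Trigeminal ganglia were dissociated from FVB/N mice, wild type and 3 to 6 weeks old by the labels (the study's methods give a narrower range for Dropseq). The cells were sequenced by Dropseq and labeled as 9 samples, with no treatment or second genotype. By the methods, the animals of a Dropseq run were pooled. Neurons had been enriched over a Percoll gradient and by depletion of glia and other non-neuronal cells. For each of 6997 cell barcodes the table counts molecules by their unique identifiers (UMIs), gene by gene. Barcodes carry no label of their sample, so they formed 1 pooled sample. Its cells are not replicates, and the differences below were not tested. Barcodes with 200 to 8500 genes numbered 6464. Of these, 256 were called OSN-like because they had a UMI of 2 or more of Stoml3, S100a5, Omp, Kirrel2 and Sult1d1, and 3112 were called neurons because they had 3 or more of Scn9a, Nefl, Nefm and Calca and no Omp. The median barcode had 2031 UMIs (range 1000 to 190815). For a share of 0, the upper limit given is that of 3 counts. Intervals in parentheses are 95% intervals, exact binomial (Clopper-Pearson) for shares and exact Poisson for UMIs per 1000000 UMIs (CPM), and cover counting error only. The table counts 3′ ends, so CPM values were compared between genes without division by length.

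All 260 receptors were placed on the GRCm38 assembly (mm10), 259 by the GENCODE M21 annotation and Olfr1182 by RefSeq, and each was annotated as protein-coding, Olfr1025-ps1 included. The annotation holds 1407 Olfr genes, 1135 of them protein-coding. The table lists 26 of its 156 class I genes. Protein-coding receptors without an annotated 3′ untranslated region (UTR) were listed less often, 5 of 78 (6.41%, 2.11 to 14.3), than those with one of 1 to 500 bases, 36 of 163 (22.1%, 16.0 to 29.2), or a longer one, 218 of 893 (24.4%, 21.6 to 27.4). Whether the missing UTR annotation set which receptors could be counted was not tested. Most listed receptors were rare: 107 had a single UMI in the whole table and 198 were seen in 1 barcode only.

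The receptors share a conserved stretch of coding sequence, which stands for the family here. Its first 9 bases, ATGGCNTAT read in frame and on the coding strand only, were found in 645 of 1144 annotated receptor coding sequences (56.4%; 1134 from protein-coding genes and 10 from polymorphic pseudogenes), in 156 of 259 listed receptors (60.2%) and in 71 of 109 receptors that led an OSN-like barcode (65.1%), against 283 of 20757 other genes with a coding sequence (1.36%). The lines that follow give 30 bases from this stretch, with the motif in capitals, for 2 of the receptors most used in OSN-like barcodes and for 2 of those seen in most neurons, to show how alike the members are and where they nevertheless differ. All lie in coding exons.
Olfr695, chr7:106714299-106714328, minus strand: ATGGCTTATgacaggtatgtggccatttgt
Olfr943, chr9:39184540-39184569, plus strand: ATGGCATATgatcgctatgttgccatctgt
Olfr920, chr9:38756041-38756070, plus strand: ATGGCCTATgatcgttatgtggctatctgc
Olfr701, chr7:106818436-106818465, plus strand: ATGGCCTATgataggtatgtggccatttgt
Likeness of this kind matters for counting. A copy with 95% or more identity over at least 80% of the coding sequence exists for 55 of the listed receptors, and reads of such pairs cannot be assigned with certainty.

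Most receptor UMIs were in the OSN-like barcodes. These held 1223 of 1617 receptor UMIs (75.6%, 73.5 to 77.7) but 3.93% of all UMIs in the table. Of 53 receptors with 10 or more UMIs, 41 had over 50% of them in OSN-like barcodes, where 0.815% of all 16443 genes with as many UMIs did (134 genes). None of the 41 had 10 UMIs outside the OSN-like barcodes, so that each passed this minimum through them, and the count is a description only. Of the 12 others, 9 had no UMI there. Olfr944, with 32 UMIs, and Olfr722, with 28, were the highest of these. Olfr78 (1 of 27 UMIs), Olfr920 (1 of 22) and Olfr705 (4 of 10) had few.

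The receptor share was higher with each added OSN marker. Barcodes without any marker had a receptor UMI in 2.39% of cases (2.01 to 2.82, n = 5765) and those with 1 marker in 9.03% (6.53 to 12.1, n = 443). With exactly 2 markers the share was 25.8% (15.5 to 38.5, n = 62), with 3 it was 71.7% (57.7 to 83.2, n = 53), with 4 it was 83.8% (73.8 to 91.1, n = 80) and with 5 it was 86.9% (75.8 to 94.2, n = 61). Receptors made up 46.2 CPM (32.7 to 63.4) of the UMIs at 2 markers and 1855 CPM (1640 to 2091) at 3. The barcodes with exactly 2 markers were deep, with a median of 4881 UMIs against 1374.5 in the 194 barcodes with 3 or more, and they carried sensory neuron genes: 53.2% (40.1 to 66.0) of them had Pou4f1, a transcription factor of somatosensory neurons, against 6.19% (3.24 to 10.6) of the 194. Values are therefore given below also for the 194 barcodes with 3 or more markers.

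**Figure D1:**
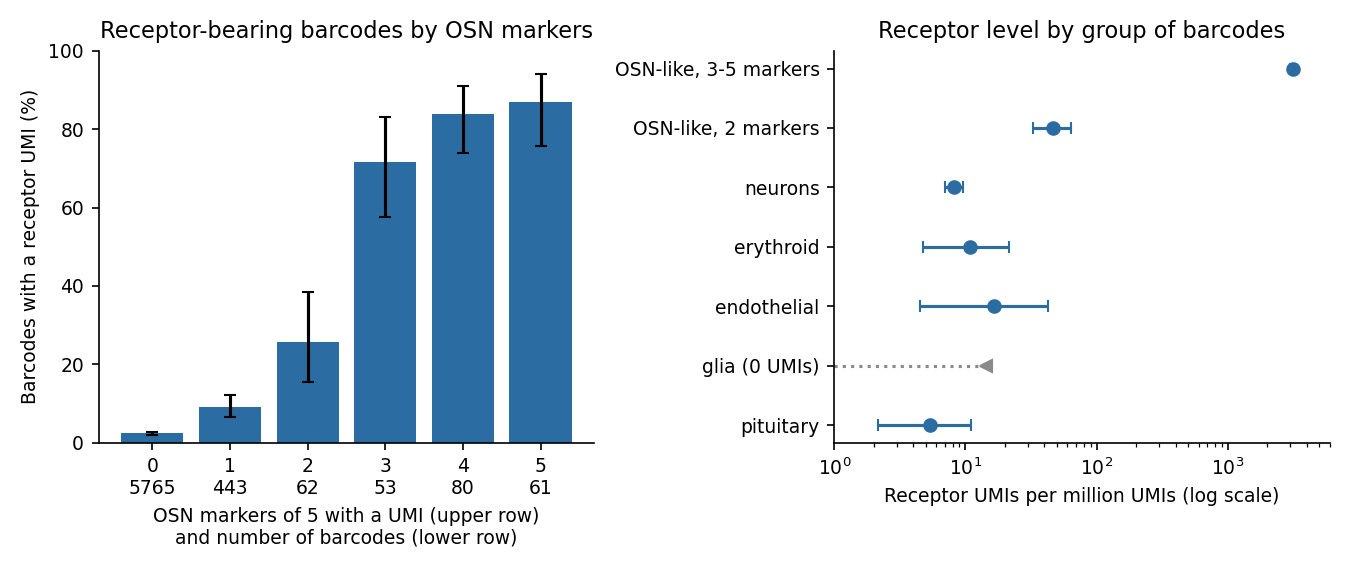
Left, percent of barcodes with a UMI of any odorant receptor against the number of the 5 OSN markers with a UMI (bars, with exact binomial 95% intervals), with the number of barcodes below each bar. Right, receptor UMIs per 1000000 UMIs (log scale) in groups of barcodes named by their markers (points, with exact Poisson 95% intervals; the arrow is the upper bound for glia, which had 0 receptor UMIs). The share steps up between 2 and 3 markers, from 25.8% to 71.7%, and barcodes with 3 or more markers stand at 3151 CPM, above all the other groups.

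The cells with 3 or more OSN markers also carried the machinery that the rule did not use. All 13 olfactory signaling genes were seen, in a median of 50.5% of the barcodes per gene, where the median over all genes with 10 or more UMIs was 2.58%. Gnal had a UMI in 94.3% (90.1 to 97.1) and Gng13, a G protein gamma subunit, in 91.8% (87.0 to 95.2), Adcy3 in 58.2% (51.0 to 65.3) and Cnga2 in 55.7% (48.4 to 62.8). Rtp1 and Rtp2, chaperones that bring odorant receptors to the cell surface, were seen in 40.7% (33.7 to 48.0) and 44.8% (37.7 to 52.1). In neurons Cnga2, Rtp1 and Rtp2 were each seen in under 0.4% (0.321%, 0.353% and 0.225%), whereas Gnal was seen in 62.3%. The share was higher than in neurons for 12 of the 13 genes and for 13.1% of all 16443 genes with 10 or more UMIs. Slc17a6, a glutamate transporter, was the exception among the 13, at 42.3% against 68.0%. Of the genes that act in receptor choice, Atf5, a factor of the feedback signal that a chosen receptor sets off, was seen in 87.6% (82.2 to 91.9), Ebf2 in 57.2% (49.9 to 64.3) and Lhx2, which binds receptor enhancers, in 26.8% (20.7 to 33.6). The same genes were seen in 18.3%, 5.04% and 0.225% of neurons, and 7 of the 10 genes of this list had a higher share than in neurons, beside the same 13.1%. Ebf1, Ldb1 and Kdm1a did not. Of the epithelial genes listed, Epcam was seen in 63.9% (56.7 to 70.7) of the 194 and Foxj1 in 14.9% (10.2 to 20.8). Epcam is not particular to the nasal epithelium, being seen in 90.2% of the pituitary-like barcodes described below. Krt8, Cyp1a2, Ermn and Krt18 of the same list were seen in 1.56% to 3.13% of all 256 OSN-like barcodes. Cyp2g1 of supporting cells was seen in 2.58% of the 194. Krt5, Krt14 and Trp63 of basal cells were at 0 of 194, which allows up to 1.55%. The trigeminal label did not match these 194 barcodes by their markers. The sensory neuron genes outside the rule (7 genes) were seen in a median of 6.19% of them, against 51.2% of neurons, and Isl1, another factor of these neurons, stood at 6.70%. Over all genes with 10 or more UMIs, the median share was 7.26% in neurons.

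Most OSN-like barcodes with a receptor showed exactly 1. Of the 256, 82 showed none, 163 showed 1, 9 showed 2 and 2 showed 3 receptors, so that 174 (68.0%, 61.9 to 73.6) had any and 163 of these (93.7%, 89.0 to 96.8) had a single one. Of the 174, 48 held only 1 receptor UMI and could show no second receptor. Among the 126 with 2 or more, 115 (91.3%, 84.9 to 95.6) had a single one. After thinning every barcode at random to 1000 UMIs, 60.5% (54.3 to 66.6) had a receptor and 94.8% (90.1 to 97.7) of these had 1. Among the 194 barcodes with 3 or more markers, 81.4% (75.2 to 86.7) had a receptor, and 148 of 158 (93.7%, 88.7 to 96.9) had a single one. The 75 OSN-like barcodes with 3 or more of the sensory neuron markers of the rule had a receptor in 44.0% of cases (32.5 to 55.9), with a median of 4721 UMIs. The part that barcodes shared by 2 cells had in this lower share was not tested.

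**Figure D2:**
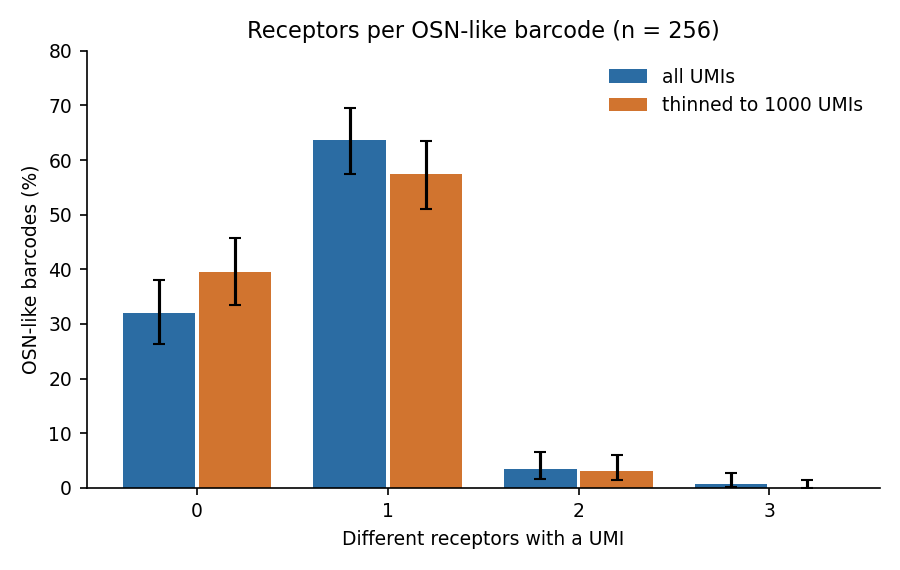
Percent of the 256 OSN-like barcodes with 0, 1, 2 or 3 different receptors, from all UMIs (blue) and after thinning each barcode to 1000 UMIs (orange), with exact binomial 95% intervals. One receptor is the most frequent state in both, at 63.7% and 57.4%, and 3 receptors were seen in 0.781% before thinning.

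Among all 256 OSN-like barcodes, the 82 without a receptor were deeper, with a median of 2863.5 UMIs against 1387 in the 163 with 1 receptor. With 3 or more markers depth was alike. Among the 194, the 36 without a receptor had a median of 1433 UMIs (range 1002 to 28146), the 148 with 1 receptor a median of 1374.5 (1000 to 13674) and the 10 with more a median of 1336 (1028 to 3286). Omp, the marker protein of mature OSNs, had a median of 8, 11 and 10.5 UMIs in them. Cnga2 was seen in 27.8% (14.2 to 45.2) of those without a receptor and 61.5% (53.1 to 69.4) of those with 1, and Atf5 in 80.6% and 89.2%. Over the 13 olfactory signaling genes the median share was 47.2% without and 52.0% with 1 receptor. Gap43, a growth protein of immature neurons, was seen in 44.4% (27.9 to 61.9) of the 36 and 29.1% (21.9 to 37.1) of the 148. These intervals overlapped. Gap43 does not mark immature OSNs alone here, as its level in neurons, given below, was no lower than in the 194. The 36 were also mixed. The deepest, with 28146 UMIs, had all 4 neuron markers of the rule. Another held 14 UMIs of Taar2, a receptor of another family.

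Within a barcode the first receptor, that with the most UMIs, took nearly everything. In the 126 OSN-like barcodes with 2 or more receptor UMIs, the median share of the first was 100% and the lowest was 50%. The 126 include 2 barcodes where a pair of receptors tied at 1 UMI each, of which 1 was counted as first in these shares. Summed over these barcodes, the first receptor supplied 1154 of 1175 receptor UMIs (98.2%, 97.3 to 98.9). A first receptor with at least 2 UMIs and more than any other was present in 124 barcodes. It had a median of 5.5 UMIs (quartiles 3 and 12.25, range 2 to 45), or 0.377% of the UMIs of the barcode, and at most 2.73%. It reached 10 UMIs in 40 barcodes and 20 in 16, and a further 50 barcodes showed no more than 1 UMI of any receptor. Olfr798 had the highest count with 45 UMIs in a barcode of 2160, followed by Olfr1301 with 38 and by Olfr1112 and Olfr180 with 35 each. None of these 4 barcodes had a UMI of a second receptor.

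Summed over the 118 barcodes with 3 or more markers and a first receptor, that receptor stood at 5442 CPM (5129 to 5770). This level lay below those of Omp (6845 CPM, 6493 to 7212), Stoml3 (8447 CPM) and S100a5 (8998 CPM) and above those of Gnal (2961 CPM, 2731 to 3205), beta-actin (Actb, 2791 CPM), Cnga2 (595 CPM) and Adcy3 (571 CPM). All receptors other than the first together stood at 87.1 CPM (51.6 to 138) in the same barcodes. Without receptors 95% or more identical to the first they stood at 67.7 CPM (37.0 to 114). In the barcodes that were not OSN-like, all receptors together stood at 13.9 CPM (12.6 to 15.4). That level includes the barcodes with 3 or more UMIs of a receptor described below, so it was not spread evenly. The barcodes were chosen for their receptor UMIs, and Omp, Stoml3 and S100a5 belong to the rule, so the order of these levels is a description only. In all 194 barcodes with 3 or more markers, all receptors together stood at 3151 CPM (2974 to 3336) and Gnal at 2582 CPM.

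**Figure D3:**
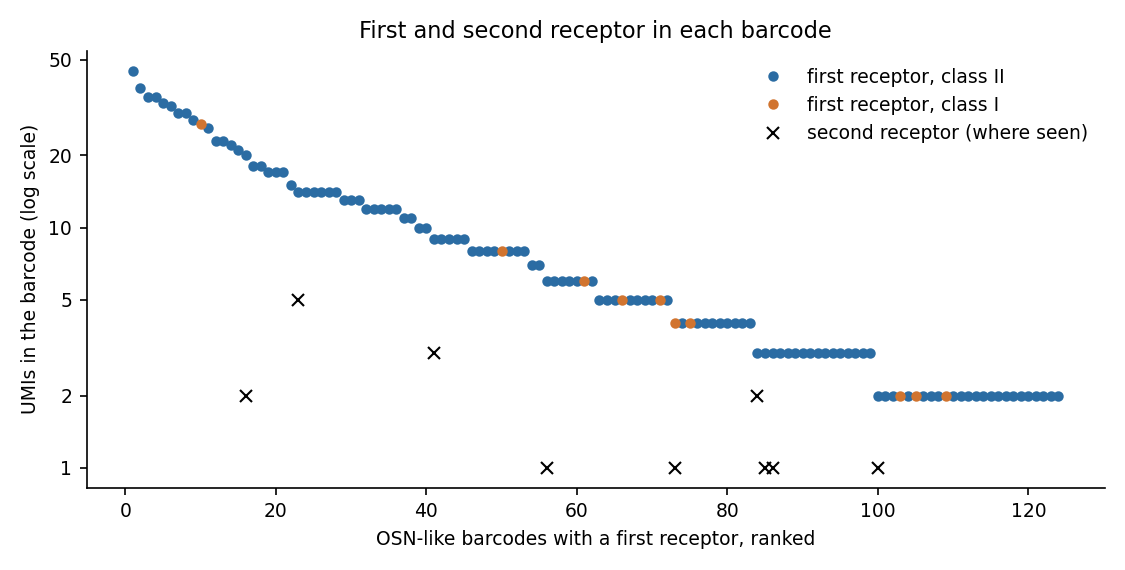
UMIs (log scale) of the first receptor in each of the 124 OSN-like barcodes that have one, ranked, with class II in blue and class I in orange, and of the second receptor where one was seen (crosses). First receptors run from 45 down to 2 UMIs, and the highest second receptor has 5 UMIs beside a first of 14.

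A second receptor was seen in 11 OSN-like barcodes. In 9 of them 1 receptor had the most UMIs, and as 2 of these showed 3 receptors they gave 11 pairs of the first with another receptor. In 6 of the 11 both genes lay in the same run (a series of receptor genes in which each is less than 500 kb from the next), against 567 of 5995 (9.46%) of all pairs that can be made of the 110 first receptors, and in 3 they were less than 100 kb apart. These 3 pairs were of 95% or more identity in coding sequence. Olfr747 with 20 UMIs came with Olfr749 at 2, which is 98.5% identical and 43.0 kb away on chromosome 14. Olfr724 with 6 UMIs came with Olfr723 at 1 (98.6% identical), and Olfr1034 with 3 came with Olfr1036 at 2 (98.0%). The sharing of reads between such copies was not tested. Of the 8 other pairs, 3 lay in the same run. In the 2 remaining barcodes both receptors had 1 UMI, so that neither was first. These were Olfr191 with Olfr193 (96.4% identical) and Olfr1251 with Olfr1250 (82.8%), both less than 100 kb apart.

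One second receptor reached 5 UMIs. Olfr943 (chr9:39166304-39192350, plus strand) had 14 UMIs and Olfr972 (chr9:39866422-39874651, plus strand) had 5 in a barcode of 1219 UMIs with 4 OSN markers and 11 UMIs of Omp. These receptors are 74.6% identical and 674 kb apart, and Olfr972 was seen nowhere else in the table. The next highest was Olfr370 on chromosome 8, with 3 UMIs beside 9 of Olfr31 on chromosome 14 in a barcode of 1344 UMIs.

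Usage was spread thinly over the family. The 124 barcodes used 110 different first receptors: 97 led a single barcode, 12 led 2 and Olfr1301 led 3. The 110 lay in 29 of the 68 runs of receptor genes and on 15 chromosomes. The largest run, on chromosome 2 (chr2:85330779-90403897), holds 20% of all protein-coding receptors (227 genes) and supplied the first receptor of 30 barcodes (24.2%, 17.0 to 32.7). A single run on chromosome 19 holds 5.81% of the protein-coding receptors and supplied 8.06% (3.94 to 14.3) of the barcodes. Of the runs on chromosome 9, 1 holds 8.37% and supplied 6.45% (2.83 to 12.3). A run on chromosome 1 holds 1.15% and supplied 4.03% (1.32 to 9.16), 1 on chromosome 14 holds 2.47% and supplied 5.65% (2.30 to 11.3), 1 each on chromosomes 13 and 16 with 2 receptors hold 0.176% and supplied 1.61% (0.196 to 5.70), and 1 on chromosome 17 holds 4.32% and supplied 0.806% (0.0204 to 4.41). These runs were picked from the 29 after their values were seen, and the differences were not tested. Of the 110, 26 have a copy of 95% or more identity in the annotation and 13 overlap another annotated gene, which leaves their exact identity uncertain.

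Olfr1301 (chr2:111751006-111758852, plus strand) was used most often. It had 38, 23 and 22 UMIs in 3 barcodes, which was 83 of its 84 UMIs in the table, the last lying in a neuron. Without the OSN-like barcodes that had 3 or more neuron markers, 1 of which held its 38 UMIs, no receptor led more than 2 barcodes. Olfr695 (chr7:106711031-106716396, minus strand) had 33 and 26 UMIs, which was every UMI of it in the table. Olfr943 had 17 and 14 UMIs in its barcodes, Olfr711 had 18 and 3, and Olfr1348 had 14 and 6. The other receptors among the 10 most used were lower. Olfr1195 had 8 and 7 UMIs, Olfr419 had 8 and 5, Olfr1424 and Olfr466 each had 9 and 2, and Olfr730 had 7 and 3. Olfr15, Olfr533 and Olfr481 also led 2 barcodes each, with at most 4 UMIs. Barcodes of like depth could hold unequal numbers of the same receptor, such as Olfr466 with 9 UMIs in a barcode of 1067 and 2 in one of 1185. Barcodes that showed the same receptor differed in at least 7 of their 12 bases (25 pairs), and none of these pairs shared 11 bases.

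Class I receptors led 10 of the 124 barcodes (8.06%, 3.94 to 14.3), each a different receptor, while they make up 11.4% of the annotated protein-coding receptors (129 of 1135). The interval includes that share. Their UMIs ran from 2 to 27 with a median of 4.5, against 2 to 45 and a median of 6 in class II. Olfr640 was the highest of class I with 27 UMIs, every UMI of it in the table. Its annotation overlaps that of Olfr643 on the same strand.

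The class of the receptor went with the zone genes of the barcode. Nqo1 and Acsm4 mark OSNs of the dorsal zone, while Ncam2 is the adhesion molecule of the ventral zones and the Nfi factors (Nfia, Nfib and Nfix) are more abundant there. Nqo1 had a UMI in 9 of 10 class I barcodes (90%, 55.5 to 99.7) and 19 of 114 class II barcodes (16.7%, 10.3 to 24.8). Acsm4 was seen in 9 of 10 (90%) and in 21 of 114 (18.4%, 11.8 to 26.8). The class I barcode without Nqo1, led by Olfr613, had 4 UMIs of Acsm4, and the one without Acsm4, led by Olfr633, had 2 of Nqo1. Ncam2 was seen in 0 of 10 class I barcodes, which allows a share of up to 30%, and in 34 of 114 class II barcodes (29.8%, 21.6 to 39.1). Nfix was seen in 0 of 10 and 30 of 114 (26.3%, 18.5 to 35.4), and Nfib in 0 of 10 and 16 of 114 (14.0%, 8.24 to 21.8). Depth was alike, with medians of 1417 and 1353 UMIs, and after thinning to 1000 UMIs Nqo1 stood at 90% and 14.9%, Acsm4 at 70% and 16.7%, and Ncam2 at 0% and 21.1%. Omp and Gng13 were each seen in 10 of 10 class I barcodes and in 99.1% and 92.1% of class II barcodes.

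**Figure D4:**
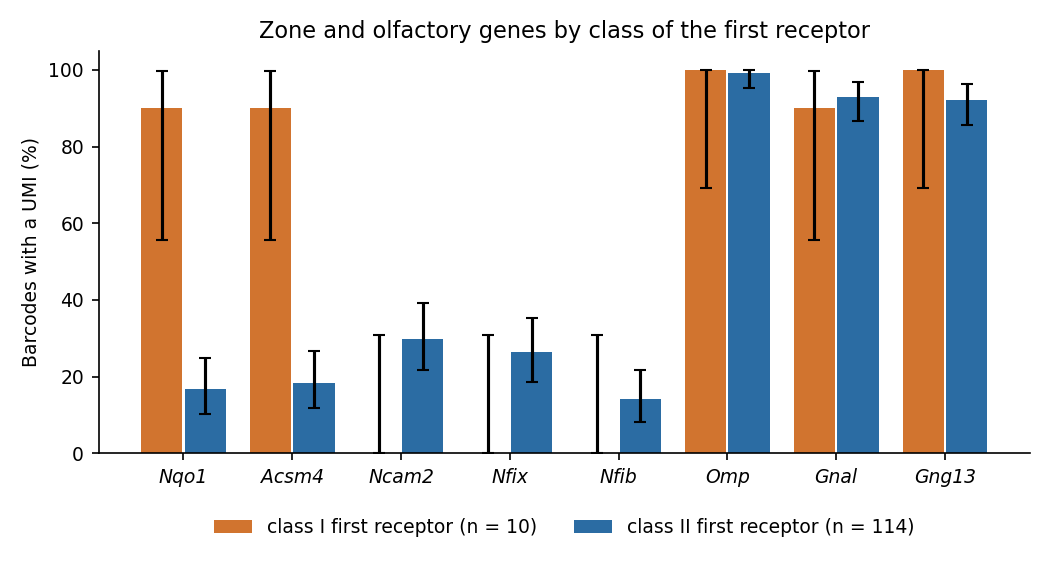
Percent of barcodes with a UMI of each gene among OSN-like barcodes led by a class I receptor (orange, n = 10) and by a class II receptor (blue, n = 114), with exact binomial 95% intervals. Nqo1 and Acsm4 stand at 90% in class I against 16.7% and 18.4% in class II, Ncam2, Nfix and Nfib have no UMI in class I, and Omp, Gnal and Gng13 are seen in 90% or more of both.

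Read from the zone genes, class I receptors led 8 of 21 barcodes with 2 or more Nqo1 UMIs (38.1%, 18.1 to 61.6), 8 of 17 with 2 or more Acsm4 UMIs (47.1%, 23.0 to 72.2) and 0 of 34 with Ncam2, which allows up to 8.82%. The class I barcode with the most Nqo1, 11 UMIs, was led by Olfr653. Among class II barcodes Acsm4 followed Nqo1, being seen in 15 of 19 with Nqo1 (78.9%, 54.4 to 93.9) and 6 of 95 without it (6.32%, 2.35 to 13.2). The 13 class II barcodes with 2 or more Nqo1 UMIs were led by Olfr798, with 6 of them, Olfr1361, with 5, and Olfr481, Olfr419, Olfr943, Olfr1028, Olfr1173, Olfr1176, Olfr1377, Olfr147 and Olfr427, with 2 or 3. Olfr481 and Olfr419 each led 2 of these barcodes.

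Barcodes led by the same receptor could be set side by side for these genes. Of the 13 receptors that led 2 or 3 barcodes, 2 had Nqo1 in all of theirs, 10 had it in none and 1 had it in some, while 22.6% (15.6 to 31.0) of all 124 barcodes had Nqo1. Olfr481 had 3 Nqo1 UMIs in both barcodes, with 4 and 1 of Acsm4. Olfr419 had 3 and 2 Nqo1 UMIs. Olfr943 was the mixed case, with 3 Nqo1 UMIs and 1 Ncam2 UMI in the barcode that also held Olfr972 and none of either in the other. Of the 10 without Nqo1, 7 had Ncam2 in at least 1 barcode, such as Olfr1348 with 1 UMI in both and Olfr1301 with 1 UMI in 2 of 3, and the other 3 had neither.

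Receptors were also strong in 23 barcodes that the rule left out, with 3 or more UMIs of a receptor but fewer than 2 OSN markers. Of these, 19 had a UMI of at least 1 of Gng8, Ebf2, Lhx2, Rtp1, Rtp2 and Cnga2, and 17 had 2 or more, as did 79.0% (70.8 to 85.8) of OSN-like barcodes with a first receptor and 0.675% (0.418 to 1.03) of neurons. These 6 genes were chosen after the barcodes had been seen. The 19 carried 18 different receptors with 4 to 30 UMIs (median 7), and a second receptor was seen in 3 of them, with at most 2 UMIs. Olfr944 had 30 UMIs, Olfr722 had 28 and Olfr293 had 23 in their barcodes. Gap43, which is not among the 6 genes, was seen in 23 of 23, at 3868 CPM (3396 to 4388) against 920 CPM (826 to 1022) in barcodes with 3 or more OSN markers and 1064 CPM (1050 to 1079) in neurons. Gng8, the gamma subunit of immature OSNs and 1 of the 6, was seen in 15 of all 23 (65.2%), a description only. Fewer than 2 OSN markers were allowed by the selection. Of the 5, Sult1d1 had a UMI in 6 of the 23 and Stoml3 in 2, while Omp, S100a5 and Kirrel2 were at 0, which allows up to 13.0% of barcodes. Of the 23, 8 counted as neurons because Scn9a, Nefl, Nefm or Calca reached 3 of 4.

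In the 3112 neurons receptors were rare. A receptor UMI was seen in 102 neurons (3.28%, 2.68 to 3.96) and in 0.739% (0.469 to 1.11) after thinning, with 159 UMIs in all, or 8.23 CPM (7.0 to 9.62). Red blood cell-like barcodes, which should lack receptors, had one in 1.79% (0.725 to 3.66, n = 390) and 10.9 CPM (4.72 to 21.5). Of their 7 receptor-bearing barcodes, 1 held Olfr78 and 66 UMIs of Vip and is among those described with Olfr78 below, and without it the values were 1.54% (0.568 to 3.33) and 9.62 CPM (3.87 to 19.8). Endothelial-like ones had a receptor in 3.15% (0.865 to 7.87, n = 127) and 16.6 CPM (4.53 to 42.5), and pituitary-like ones had it in 1.80% (0.726 to 3.67, n = 389) and 5.32 CPM (2.14 to 10.97). Glia-like barcodes had it in 0 of 86, which allows up to 3.49%. After thinning, the share was 0.769% (0.159 to 2.23) in erythroid, 1.57% (0.191 to 5.57) in endothelial and 0.257% (0.00651 to 1.42) in pituitary-like barcodes. The 0.739% of neurons lay within each of these intervals. Median depths were 3435 UMIs in neurons and 1492.5, 1475, 2789 and 1850.5 in these groups. Taken over all neurons, the level lay within the intervals of the erythroid, endothelial and pituitary groups. It differed with depth, however. The share of neurons with a receptor was 2.31% at 1000 to under 2000 UMIs, 1.75% at 2000 to under 5000, 4.96% at 5000 to under 10000 and 6.62% at 10000 or more. In the same order of depth the level was 41.2 CPM (30.6 to 54.3), 7.25 CPM (4.82 to 10.5), 9.59 CPM (6.91 to 12.96) and 3.96 CPM (2.81 to 5.41), so that share and level did not move together over all steps of depth. The level under 2000 UMIs rested on few barcodes. Of its 50 receptor UMIs, 34 were in 3 neurons with 3 or more UMIs of a receptor, led by Olfr293, Olfr180 and Olfr115, each at the lowest number of neuron markers that the rule allows. The level under 2000 UMIs, 41.2 CPM, lay above the erythroid and pituitary intervals and within the endothelial one. Without these 3 neurons it was 13.2 CPM (7.56 to 21.5), within the erythroid and endothelial intervals and above the pituitary one. Without all 8 such neurons the level over all neurons was 5.19 CPM (4.22 to 6.31). These neurons were left out for their receptor UMIs, so the lower levels follow from the choice and are a description only.

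The neurons showed 69 different receptors, of which 20 were also seen in OSN-like barcodes (28.99% of the 69 and 12.4% of the 161 receptors seen there). Of all 260 listed receptors 61.9% were seen in OSN-like barcodes, and of all 19693 genes seen in neurons 76.4% were. As 107 receptors had a single UMI and could be seen in 1 group only, these shares are a description. Of the 69 receptors, 59 were each seen in 1 neuron only, 6 in 2 neurons and 4 in more. No more than 1 UMI in any neuron was seen for 60 of the 69. Of the 59, the 15 also seen in OSN-like barcodes were Olfr307, Olfr370, Olfr536, Olfr711, Olfr798, Olfr868, Olfr943, Olfr1182, Olfr1183, Olfr1184, Olfr1271, Olfr1301, Olfr1348, Olfr1361 and Olfr1384. The other 44 were Olfr6, Olfr18, Olfr67, Olfr110, Olfr122, Olfr130, Olfr209, Olfr281, Olfr291, Olfr293, Olfr320, Olfr368, Olfr374, Olfr509, Olfr553, Olfr656, Olfr686, Olfr697, Olfr794, Olfr801, Olfr832, Olfr862, Olfr875, Olfr906, Olfr978, Olfr982, Olfr1082, Olfr1084, Olfr1208, Olfr1217, Olfr1223, Olfr1233, Olfr1254, Olfr1260, Olfr1262, Olfr1264, Olfr1286, Olfr1324, Olfr1346, Olfr1393, Olfr1412, Olfr1440, Olfr1443 and Olfr1446. Among these, Olfr293 (23 UMIs), Olfr1084 (7) and Olfr291 (4) were in barcodes with the olfactory genes described above. The Olfr1084 barcode also had 2379 UMIs of growth hormone (Gh), a pituitary gene, among its 6888. Olfr6 had 2 UMIs. All the rest had 1 UMI. In the 2823 neurons with none of the 6 olfactory genes and under 5 UMIs of Vip, a receptor was seen in 72 (2.55%, 2.0 to 3.20) at 4.75 CPM (3.75 to 5.94), with 52 receptors, 3 of which had 2 or more UMIs in a neuron.

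Olfr920 (chr9:38752299-38760117, plus strand) was seen in the most neurons, 14, with 16 UMIs and at most 3 in a neuron. Its level was 0.829 CPM (0.474 to 1.35) in neurons, 0.835 CPM (0.0211 to 4.65) in OSN-like barcodes and 0.602 CPM (0.196 to 1.41) in barcodes that were neither, so that the intervals overlapped throughout. Its 14 neurons were deep, with a median of 9579.5 UMIs against 3435 in all neurons. Olfr701 (chr7:106814129-106821472, plus strand) was seen in 8 neurons with 1 UMI each, at 0.414 CPM (0.179 to 0.816), and in 0 of 256 OSN-like barcodes, which allows up to 1.17%. Olfr284 was seen in 4 neurons with 1 UMI each and in no other barcode within the gene limits.

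The other receptors in 2 neurons each were Olfr180, Olfr115, Olfr323, Olfr56, Olfr700 and Olfr73. Olfr180 overlaps Olfr181 on the same strand. It had 7 UMIs in a barcode with Lhx2, Rtp2 and 5 UMIs of Sult1d1 and 1 UMI in the other, beside 35 UMIs in an OSN-like barcode. Olfr115 had 4 UMIs and 1 UMI, the former beside 3 UMIs of Gng8. Olfr323 had 2 UMIs and 1 UMI, and Olfr56, Olfr700 and Olfr73 had 1 UMI in each neuron. Olfr56 overlaps other annotated genes on both strands and Olfr115 overlaps Olfr116 on the same strand, so their counts are uncertain.

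Olfr78, a class I receptor (chr7:102738511-102759471, minus strand) that overlaps Olfr560 on the same strand, was seen in other barcodes than the rest. It had 27 UMIs in 16 barcodes within the gene limits, 1 of them OSN-like, and 8 of them neurons with 18 UMIs. Of the 15 outside the OSN-like set, 13 had 5 or more UMIs of Vip, the vasoactive intestinal peptide, and the Vip threshold and the genes below were chosen after this had been seen. Barcodes with 5 or more Vip UMIs numbered 25, and Olfr78 was seen in 13 of them (52%, 31.3 to 72.2) at 207 CPM (133 to 308). It was seen in 2 of the 6183 other barcodes outside the OSN-like set (0.0323%, 0.00392 to 0.117). Median depths were 3599 and 2246 UMIs, and after thinning to 1000 UMIs Olfr78 was seen in 5 of the 25 (20%, 6.83 to 40.7) and in 0 of the 6183, which allows up to 0.0485%. All the other receptors together had 1 UMI in the 25 barcodes.

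The barcodes with Vip carried genes of autonomic neurons. Slc5a7, the choline transporter, was seen in 20 of 25 (80%, 59.3 to 93.2), Nos1, nitric oxide synthase, in 21 (84%, 63.9 to 95.5) and Chrna3, the ganglionic nicotinic receptor subunit, in 15 (60%, 38.7 to 78.9). Hand2, a transcription factor of autonomic neurons, was seen in 10, and Dbh, which makes noradrenaline, in 9. Other genes of transmitter synthesis were rare or absent: Chat, which makes acetylcholine, was seen in 2 of 25, and Th, which acts before Dbh, in 0 of 25, which allows up to 12%. The neuropeptide Npy was seen in 2 of 25. In the 3096 neurons with under 5 Vip UMIs, Slc5a7 was seen in 1.26%, Nos1 in 6.04%, Chrna3 in 1.91% and Hand2 in 0.0323%. Conversely Isl1, Pou4f1 and Prdm12, factors of somatosensory neurons, were each seen in 1 of the 25 (4%, 0.101 to 20.4) and in 55.5%, 45.4% and 46.9% of the 3096. The barcode with the most Olfr78, 6 UMIs, had 889 UMIs of Vip and 14 of Nos1 among its 19090. Within the 25, Phox2a was seen in 6 of the 13 with Olfr78 and 0 of the 12 without, which allows up to 25%, and Hand2 in 8 and 2.

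**Figure D5:**
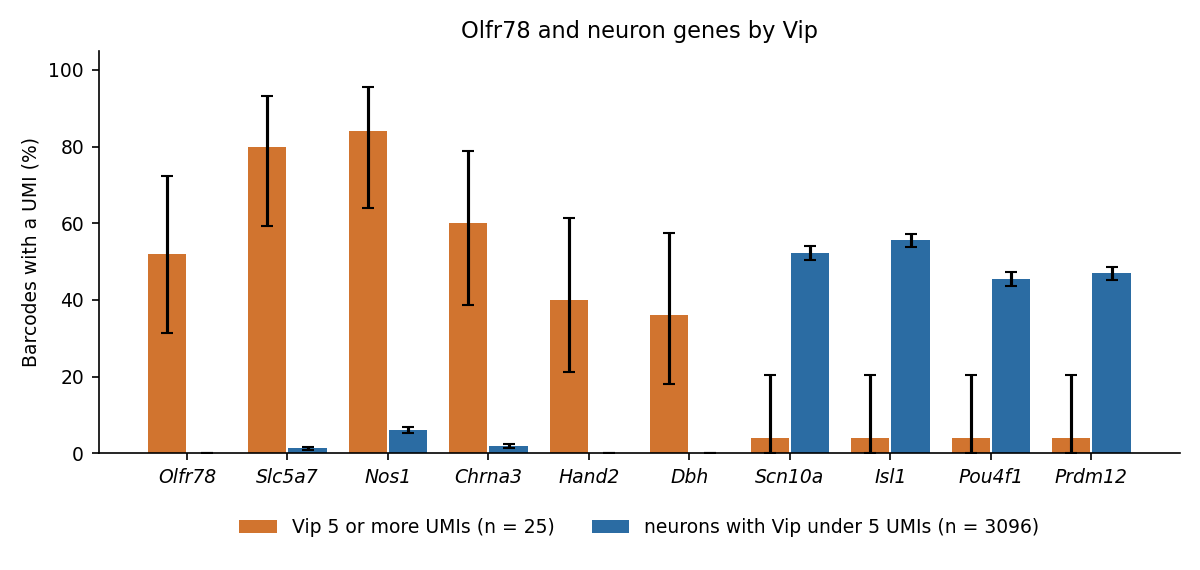
Percent of barcodes with a UMI of Olfr78 and of genes of autonomic neurons (Slc5a7 to Dbh) and somatosensory neurons (Scn10a to Prdm12) among the 25 barcodes outside the OSN-like set with 5 or more Vip UMIs (orange) and the 3096 neurons with fewer (blue), with exact binomial 95% intervals. Olfr78 stands at 52% against 0.0323%, and the 4 somatosensory genes, none of them in the neuron rule, each stand at 4% among the 25.

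Other families of chemosensory receptors were seen in few OSN-like barcodes, although most UMIs of the trace amine-associated receptors lay there. The trace amine-associated receptors (Taar, 5 genes listed), which some OSNs use in place of an odorant receptor, had 18 of their 20 UMIs in 3 OSN-like barcodes. Taar2 had 14 UMIs in a barcode with 14 UMIs of Omp and no Olfr receptor, while Taar6 and Taar7b had 2 UMIs each in barcodes with 1 and 14 UMIs of an Olfr receptor. Of the vomeronasal receptors, the 12 Vmn1r genes had 0 UMIs in OSN-like barcodes and 28 in neurons. The 22 Vmn2r genes had 4 UMIs in OSN-like barcodes and 27 in neurons. The 4 were all in 1 barcode, with 3 UMIs of Vmn2r69, 1 of Vmn2r29 and no Olfr receptor. OSN-like barcodes held 1198264 UMIs in all and neurons 19310391, so these counts do not compare the groups.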

How the data were processed

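Animals were pooled and neurons enriched from trigeminal ganglia before Dropseq capture, per the study's methods. The labels name 9 samples. The authors deposited 1 table of UMI counts per gene and barcode, not normalized. The submitters' processing notes name bcl2fastq 2.17, STAR 2.5.3a, Seurat 1.4.0.16 and the mm10 build. Barcodes were not assigned to samples by their names, so 1 pooled sample was analysed, without a test. OSN-like barcodes, neurons and the erythroid-, endothelial-, glia- and pituitary-like barcodes were picked by counting marker genes, after limits of 200 to 8500 genes. No doublet caller was run, and doublets were not removed. Barcodes were thinned to 1000 UMIs (seed 11) where depth could set a share. The first receptor of a barcode was that with the most UMIs, at least 2 and more than any other. Receptors were placed with GENCODE M21 (GRCm38) and runs of genes split at gaps of 500 kb, the run around the beta-globin genes on chromosome 7 being class I. Identity was taken by blastn 2.17.0 over at least 80% of the coding sequence. Python 3.11.15, numpy 2.4.6, pandas 2.3.3 and scipy 1.17.1 were used, and counting of first and second receptors was tested on simulated data. Receptors named were the 10 that led most OSN-like barcodes, the 10 seen in most neurons and pairs with a second receptor of 5 or more UMIs. Others were named after their values were seen. The receptors and marker lists were chosen with earlier results of these data known. Some listed genes and sequences are not reported here.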

Additional observations from a re-analysis of the deposited data

Results flagged for a closer look

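Receptor UMIs were also present in the 533 barcodes left out by the limits on genes, which were part of the totals over the whole table (1617 receptor UMIs) but of no group compared above. They held 11 receptor UMIs in 11 barcodes (2.06%, 1.03 to 3.66). Barcodes under 200 genes had a receptor in 9 of 523 (1.72%, 0.790 to 3.24) and those over 8500 genes in 2 of 10. The share lay within the intervals of the erythroid-like and pituitary-like barcodes.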

How the results depend on the processing

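Of 79 values recomputed under other settings, 63 stayed within the limits set for a change and 16 moved. The 63 are a description only, as some settings could not change a value. No barcodes were merged for sharing 11 bases and a first receptor, and first receptors have 2 UMIs or more by definition. The limits were wide for counts, as 256 OSN-like barcodes counted as unmoved at 181. The percent of OSN-like barcodes with a receptor, 68.0%, was 81.4% with 3 or more markers, 80.7% where a marker needed 2 UMIs, 48.4% where a receptor needed 2 UMIs, 60.5% after thinning and 77.9% without barcodes that had 3 or more neuron markers. In the same order of settings, thinning left out, the percent of receptor UMIs in OSN-like barcodes, 75.6%, was 73.3%, 72.9%, 83.3% and 64.7%. Asking for all 4 neuron markers left 1622 of 3112 neurons and 45 of 69 receptors in them. Where a receptor needed 2 UMIs, 0.418% of neurons had one and 9 receptors were seen, and after thinning 0.739% and 19. The percent with exactly 1 receptor ran from 93.1% to 96.8% over all settings, the number of different first receptors from 95 to 110 and the class I percent from 7.41% to 9.52%. In alternatives chosen after seeing the data, leaving out neurons with any of the 6 olfactory genes gave 2836 neurons, 2.72% with a receptor and 53 receptors, and leaving out those with 5 or more Vip UMIs gave 3096, 3.07% and 68. Leaving out neurons with 3 or more UMIs of a receptor lowered the level in neurons under 2000 UMIs from 41.2 to 13.2 CPM. This fall follows from the choice of the neurons left out. No paired analysis was possible because all barcodes formed 1 pooled sample. Depth limits the second receptor: at a median of 5.5 UMIs of the first, a second at a small share of it was not detectable.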
